A study of Ursus arctos with 12 samples.

Results

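The thin filament of striated muscle carries a calcium switch made of troponin and tropomyosin, and 10 of its genes were followed here through the hibernation of the brown bear (Ursus arctos). They were the slow skeletal troponins TNNT1, TNNC1 and TNNI1, the fast skeletal troponins TNNT3, TNNC2 and TNNI2, the cardiac troponin T gene TNNT2 and the tropomyosins TPM1, TPM2 and TPM3. The genes were taken by symbol from a table of 30249 genes, where 9 stood under their own symbol. TPM3 was listed under a locus number and was matched by its gene identifier in RefSeq. Libraries came from biopsies of vastus lateralis, a thigh muscle, of 6 free-ranging bears aged 2 to 3 years, and each bear was sampled once in winter, during hibernation, and once in summer, when it was active. The 12 libraries held 16742406 to 32140160 reads each. No agent or genotype separated the seasons, and feeding state, activity and date of capture changed with season, so these cannot be told apart from hibernation itself.

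Troponin is a complex of 3 proteins. Troponin C binds calcium, troponin I blocks the interaction of actin with myosin when calcium is low, and troponin T anchors the complex to tropomyosin, the coiled-coil protein that lies along actin. Slow and fast fibres use different genes for each of these subunits, so the mRNA of a slow and a fast form of the same subunit is commonly read as a sign of the fibre types in a muscle. TPM3 gives the tropomyosin chain typical of slow fibres, TPM1 that of fast fibres, and TPM2 the beta chain shared by both. TNNT2, the form of adult heart, is also made in embryonic and regenerating skeletal muscle.

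All 10 genes passed the minimum of 30 reads over the 12 libraries, and TNNT2, with the fewest reads, had 114 to 3418 reads per library. Together they took 3.65 to 6.03% of the reads of a summer library (median 5.20%) and 3.81 to 4.75% of a winter library (median 4.29%). With edgeR's quasi-likelihood test and an adjusted p below 0.05 over the 17290 genes tested, 0 of the 10 were called higher in winter and 0 lower. In the same comparison 39.5% of all genes were called, 19.6% higher and 19.9% lower. The median log2 fold change of winter over summer was −0.02 over the 10 genes and −0.00 over all genes. Before adjustment 2 of the 10 had a p below 0.05, TNNT2 on the higher side and TNNI2 on the lower, against 8396 of all genes. With the bear as a block, a fit that called 40.8% of all genes, TNNT2 was called higher and no other of the 10. DESeq2, with or without that block, called TNNI2 lower and no other, and limma voom called 0.

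Levels of the 2 seasons overlapped for each of the 10 genes, while they did not overlap for 17.3% of all genes. TPM3 was higher in winter in 6 of 6 bears and was the only one of the 10 with the same direction in every bear, where 37.4% of all genes had one direction. In bulk muscle, fewer fibres of a type and less of its mRNA per fibre cannot be told apart. Levels below are log2 CPM, a gene's reads brought to a common library size, after TMM scaling with a prior count of 2. They are not corrected for gene length and were compared between seasons, not between genes.

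**Figure D1:**
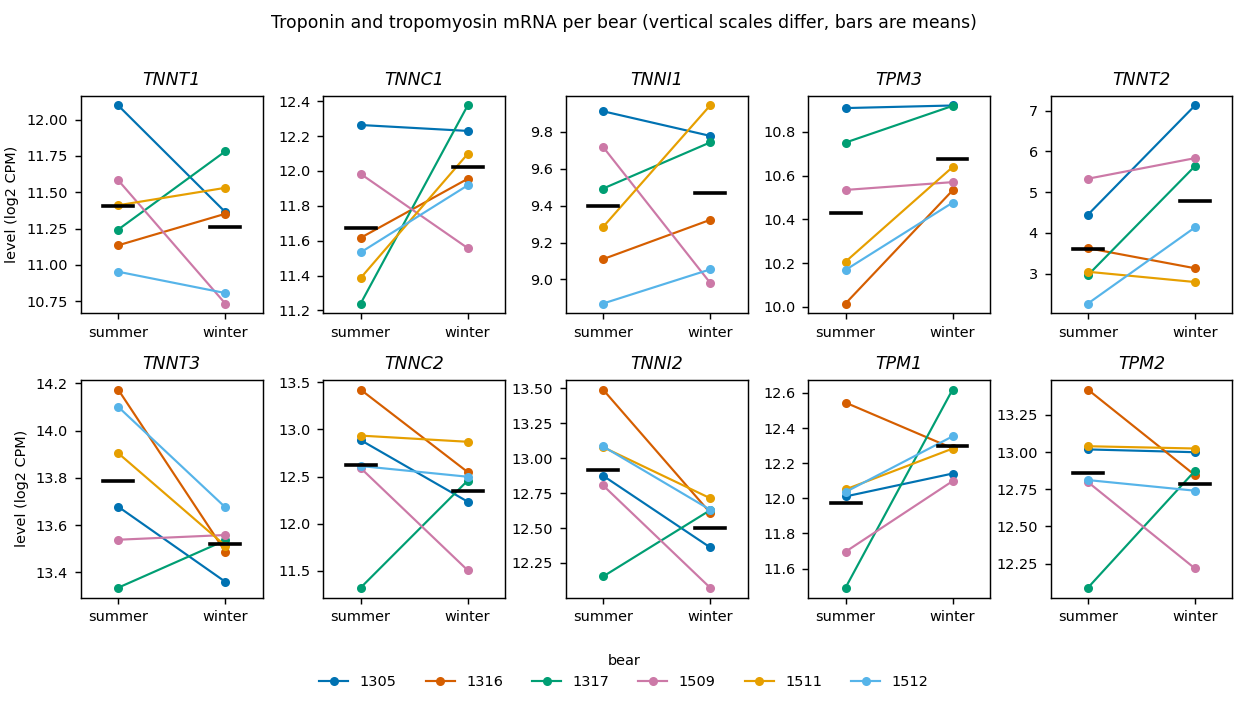
Level of each gene (log2 CPM, vertical scales differ) in summer and winter, with a line for each of the 6 bears and a bar for the season mean. On these TMM-scaled levels TPM3 was higher in winter in all 6 bears, whereas the lines of every other gene run in both directions.

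None of the slow troponins passed the test, and their fold changes lay on both sides of 0. TNNT1, slow troponin T, ran from 10.95 to 12.10 log2 CPM in summer with a median of 11.33, and from 10.73 to 11.78 in winter with a median of 11.36. Its seasons overlapped widely, and it was higher in winter in 3 of 6 bears. Its log2 fold change was −0.14 ± 0.22 (SE, adjusted p = 0.626), with a 95% interval from −0.61 to 0.32.

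TNNI1, slow troponin I, ran from 8.87 to 9.91 log2 CPM in summer (median 9.39) and from 8.98 to 9.94 in winter (median 9.53). The 2 ranges were nearly the same, and the gene was higher in winter in 4 of 6 bears. Its log2 fold change was 0.08 ± 0.21 (SE, adjusted p = 0.793), and this value turned to −0.02 when libraries were scaled by their totals in place of TMM.

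TNNC1 encodes the troponin C of slow fibres and heart. It ran from 11.24 to 12.26 log2 CPM in summer (median 11.57) and from 11.56 to 12.38 in winter (median 12.03). The winter values of 5 bears lay above the summer median, and 4 of 6 bears were higher in winter than in their own summer. The log2 fold change of 0.33 ± 0.19 (SE, adjusted p = 0.183) had a 95% interval from −0.08 to 0.74, which includes 0. It was 0.18 without bear 1317, and leaving out the other bears in turn gave up to 0.48. Within bears, TNNC1 differed by 1.14 between the seasons in bear 1317 and by −0.43 in bear 1509.

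The fast troponins all had fold changes below 0, and none passed the adjusted threshold. TNNI2, fast troponin I, ran from 12.15 to 13.49 log2 CPM in summer (median 12.98) and from 12.07 to 12.71 in winter (median 12.62). Every winter value lay below the summer median, but the lowest summer library, that of bear 1317, lay near the lowest winter one. Its log2 fold change was −0.45 ± 0.20 (SE), a winter level 0.733 times that of summer, with an adjusted p of 0.0835 in edgeR's quasi-likelihood test. It was lower in winter in 5 of 6 bears, by 0.36 to 0.88, and higher by 0.47 in bear 1317. Without that bear the value was −0.59 and the adjusted p was 0.0214. Over the 14 alternatives the adjusted p ran from 0.0210 to 0.212, and DESeq2 gave −0.44 with an adjusted p of 0.0492.

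TNNC2, the troponin C of fast fibres, had the widest summer range of the fast troponins, from 11.32 to 13.42 log2 CPM (median 12.75), and ran from 11.51 to 12.87 in winter (median 12.48). The lowest summer value was that of bear 1317 and the lowest winter value that of bear 1509, both far from the other libraries of their season. It was lower in winter in 5 of 6 bears, but by 0.07 in bear 1511 and 0.11 in bear 1512, and the log2 fold change was −0.34 ± 0.29 (SE, adjusted p = 0.363). Leaving out 1 bear at a time gave −0.52 to −0.19.

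TNNT3, fast troponin T, ran from 13.34 to 14.17 log2 CPM in summer (median 13.79) and from 13.36 to 13.68 in winter (median 13.52). The winter libraries were close together, with an SD of 0.10 against 0.33 in summer, and all lay inside the summer range. It was lower in winter in 4 of 6 bears, and the log2 fold change was −0.29 ± 0.16 (SE, adjusted p = 0.163).

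**Figure D2:**
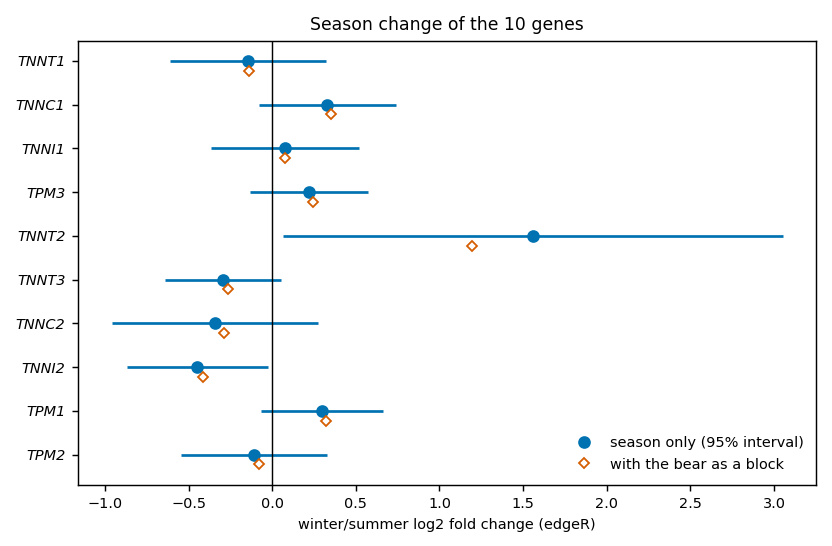
Log2 fold change of winter over summer for the 10 genes, with filled points and 95% intervals from the edgeR fit on season alone and open diamonds from the fit with the bear as a block. The intervals of TNNI2 and TNNT2 leave out 0 before adjustment, and those of the other 8 genes include it.

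TNNT2 stood apart from the other troponin genes in its low level and its wide range between bears. In summer it had 21.7, 12.3, 7.73, 40.1, 8.18 and 4.73 CPM in bears 1305, 1316, 1317, 1509, 1511 and 1512. In winter the same bears had 139.5, 8.69, 49.7, 57.0, 6.86 and 17.5 CPM. It was higher in winter in 4 bears, by 2.68, 2.67, 1.87 and 0.50 on the log2 scale in bears 1305, 1317, 1512 and 1509, and lower by 0.49 and 0.25 in bears 1316 and 1511. The winter values of bears 1316, 1511 and 1512 lay within the summer range, so the seasons overlapped, and those of bears 1305, 1317 and 1509 lay above it. The log2 fold change was 1.56 ± 0.70 (SE), with an adjusted p of 0.0891 in edgeR's quasi-likelihood test. With the bear as a block it was 1.19 ± 0.44 (SE, adjusted p = 0.0494). Without bear 1305 the season-only value fell to 0.92 (adjusted p = 0.320), and without bear 1509 it was 2.03 (adjusted p = 0.0457), so the call depended on single bears.

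Other genes of embryonic and regenerating fibres gave 2 higher, 1 lower and 7 not called among the 10 of 11 listed genes that were tested. Over all genes tested, 19.6% were called higher and 19.9% lower, the base for this list and for those below. CHRNG, the fetal subunit of the acetylcholine receptor, rose by 2.29 ± 0.58 (SE, adjusted p = 0.00699) from a low level of 8 to 193 reads per library. It was higher in winter in 5 of 6 bears. MYF6, a myogenic regulator of mature fibres, rose by 0.73 ± 0.26 (adjusted p = 0.0379), and the call was lost without bear 1316, 1317 or 1512 (adjusted p = 0.0962, 0.158 and 0.0930). MYF5, a regulator of muscle stem cells, fell by 2.04 on the log2 scale (SE 0.29, adjusted p = 0.000122), with no overlap between seasons. Over the 12 libraries of the 6 bears, with season means removed, TNNT2 had a Pearson r of 0.84 with MYL4, the embryonic essential light chain. It had 0.60 with the perinatal myosin MYH8, 0.04 with CHRNG and −0.66 with the cardiac actin ACTC1. With the other listed genes r ran from −0.37 with MYF5 to 0.58 with CHRNA1. MYL4 and MYH8 were not called (edgeR adjusted p = 0.305 and 0.478), and MYH8 was highest in bear 1305 in both seasons. These correlations share libraries and scaling and are given as a description.

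Among the tropomyosins, TPM1 and TPM3 had fold changes above 0 and TPM2 one below it, and none was called. TPM3 ran from 10.02 to 10.91 log2 CPM in summer (median 10.37) and from 10.48 to 10.92 in winter (median 10.60). All 6 bears were higher in winter, by 0.01 to 0.52, and the smallest differences were 0.01 in bear 1305 and 0.04 in bear 1509. This direction depended on the scaling. As a share of library totals, TPM3 was lower in winter in bear 1305, with 52750 of 27283155 reads in summer and 47470 of 24953331 in winter. In bear 1317 it was lower too, with 39676 of 20191068 reads in summer and 34363 of 19250602 in winter. The log2 fold change was 0.22 ± 0.16 (SE, adjusted p = 0.304), and it did not pass in any of the 14 alternatives (adjusted p from 0.0605 to 0.602).

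TPM1 ran from 11.49 to 12.54 log2 CPM in summer (median 12.02) and from 12.10 to 12.62 in winter (median 12.28). It was higher in winter in 5 of 6 bears, the exception being bear 1316. The log2 fold change of 0.30 ± 0.17 (SE, adjusted p = 0.182) moved to 0.14 without bear 1317, in which TPM1 differed by 1.13, and to 0.44 without bear 1316 (adjusted p = 0.0506).

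TPM2 ran from 12.09 to 13.42 log2 CPM in summer (median 12.92) and from 12.22 to 13.02 in winter (median 12.86). Its ranges overlapped almost fully. It was lower in winter in 5 of 6 bears, but by 0.07 or less in 3 of them, and higher by 0.79 in bear 1317, and the log2 fold change was −0.11 ± 0.20 (SE, adjusted p = 0.699). The gene counts do not separate splice forms, which matter for TPM1, TPM2, TPM3 and the troponin T genes, and how reads shared between similar tropomyosin genes were counted is not given in the sources used here.

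The fourth tropomyosin gene, TPM4, was outside the 10 genes and is named after its values were seen. TPM4 is found mainly in cells other than muscle fibres. It fell by 0.68 on the log2 scale (SE 0.12, adjusted p = 0.000501), and its winter range of 5.92 to 6.53 log2 CPM lay below its summer range of 6.74 to 7.18. Markers of several other cell types were also lower in winter. The 9 smooth muscle and pericyte markers summed to 620 to 730 CPM in summer and 325 to 415 CPM in winter, with 5 of 9 called lower. The 8 fibroblast markers summed to 4369 to 11644 CPM in summer and 305 to 2002 CPM in winter, with 5 of 8 called lower. Their part in the tropomyosin values was not tested. Of the 6 muscle fibre markers, all detected in every library, 1 was called higher and 2 lower, and CKM, muscle creatine kinase, had 889667 to 2137210 reads per library. Adipocyte markers gave 1 called higher and 1 lower of 5, endothelial markers 0 higher and 4 lower of 5, and leukocyte and blood markers 0 higher and 1 lower of 6. The adipocyte marker called higher was LEP, with only 0 to 19 reads per library. It was not called in edgeR with the bear as a block (adjusted p = 0.0629).

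Slow and fast forms of each subunit were then set against each other within a library, since a ratio of reads does not depend on library scaling. The ratio depends on gene length, so its level is not a relative abundance, and only its change between seasons was compared. For troponin C, log2 TNNC1/TNNC2 was −0.62, −1.81, −0.08, −0.61, −1.55 and −1.08 in summer in bears 1305, 1316, 1317, 1509, 1511 and 1512. In winter it was −0.00, −0.59, −0.08, 0.05, −0.77 and −0.58. It was higher in winter in 5 of 6 bears, by 0.50 to 1.21, and did not move in bear 1317. The mean difference was 0.63 ± 0.39 (SD, n = 6, exact two-sided sign-flip permutation p = 0.0625, adjusted p = 0.25 over the 4 ratios). With 6 bears the smallest p this test can give before adjustment is 0.03125. After adjustment over the 4 ratios, a ratio at that p passes 0.05 only if other ratios reach it too. The adjusted p values of this test therefore had little room to pass. limma on the same ratios with the bear as a block gave the same difference with an adjusted p of 0.0433.

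For troponin I, log2 TNNI1/TNNI2 ran from −4.38 to −2.66 in summer (median −3.44) and from −3.58 to −2.58 in winter (median −2.99). The mean difference was 0.48 ± 0.54 (SD, n = 6, exact sign-flip permutation p = 0.125, adjusted p = 0.25), and the ratio was higher in winter in 4 of 6 bears. For troponin T, log2 TNNT1/TNNT3 ran from −3.15 to −1.58 in summer and from −2.87 to −1.75 in winter. The mean difference was 0.12 ± 0.65 (SD, n = 6, exact sign-flip permutation p = 0.688, adjusted p = 0.719). It ran from −0.87 to 0.90 between bears, and its mean turned to −0.03 without bear 1316. The 3 subunits of the same complex therefore did not share a direction in every bear. For tropomyosin, log2 TPM3/TPM1 had a mean difference of −0.08 ± 0.58 (SD, n = 6, exact sign-flip permutation p = 0.719, adjusted p = 0.719), and was higher in winter in 2 of 6 bears. Without bear 1317 its mean was 0.10.

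The spread of these ratios between bears was larger in summer than in winter. The SD was 0.62 in summer and 0.47 in winter for troponin T, 0.65 and 0.36 for troponin C, 0.71 and 0.36 for troponin I, and 0.66 and 0.23 for TPM3/TPM1. The summer SD was the larger of the pair for all 4 ratios whichever bear was left out. The level of 7 of the 10 genes had a larger SD in summer, as did 44% of all genes. In the other slow and fast pairs described below the SD went both ways. It was smaller in summer than in winter for MYH7/MYH1 (0.68 and 1.19), CASQ2/CASQ1 (0.41 and 0.90) and MYBPC1/MYBPC2 (0.19 and 0.32). It was larger in summer for MYL2/MYLPF (0.80 and 0.40), ATP2A2/ATP2A1 (0.63 and 0.27) and MYOZ2/MYOZ1 (1.02 and 0.62). No test of the difference in spread was made, and the 4 ratios come from the same libraries.

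**Figure D3:**
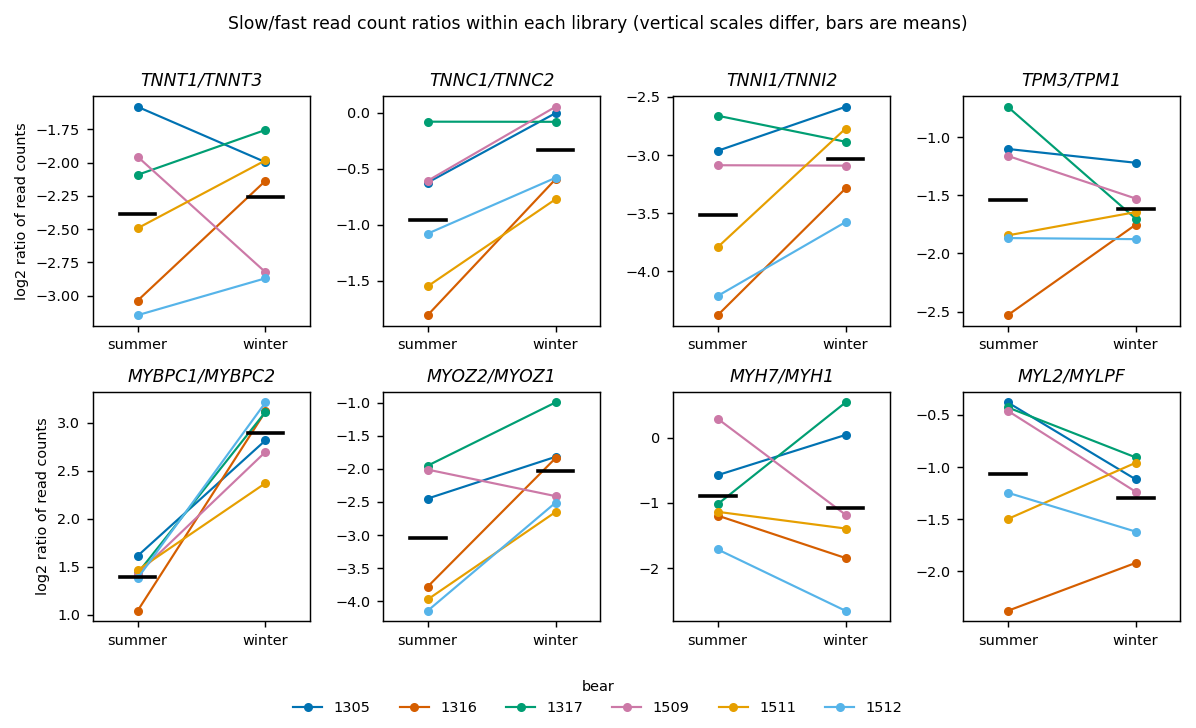
Log2 ratio of read counts of slow to fast forms in summer and winter, a line for each of the 6 bears and a bar for the season mean, with the 4 troponin and tropomyosin ratios in the upper row and 4 other pairs of contractile genes in the lower row. Log2 TNNC1/TNNC2 was higher in winter in 5 of 6 bears and MYBPC1/MYBPC2 in 6 of 6, while MYH7/MYH1 and MYL2/MYLPF were higher in 2 of 6.

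Other slow and fast pairs were added after the data were seen and carry no test. The ratio of MYBPC1 to MYBPC2, the slow and fast myosin-binding proteins C, was higher in winter in 6 of 6 bears, with a mean log2 difference of 1.498 and a range of 0.91 to 2.08. Most of this came from MYBPC2, which fell by 1.24 on the log2 scale. MYBPC1 itself was higher in 6 of 6 bears but was not called in the edgeR fit (0.23 ± 0.12, SE, adjusted p = 0.159). The ratio of MYOZ2 to MYOZ1, Z-disc proteins of slow and fast fibres, was higher in 5 of 6 bears, with a mean of 1.01. The ratios for myosin heavy chain (MYH7/MYH1), regulatory light chain (MYL2/MYLPF), the calcium pump (ATP2A2/ATP2A1) and calsequestrin (CASQ2/CASQ1) had means of −0.19, −0.23, −0.11 and −0.17 and were each higher in winter in 2 of 6 bears.

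Across the 12 libraries, with season means removed, the troponins of a fibre type varied together from library to library. The 3 pairs of slow troponins had Pearson r of 0.72 to 0.89, the 3 pairs of fast troponins 0.63 to 0.95, and the 9 slow with fast pairs −0.62 to 0.49 with a median of 0.09. TPM3 had r of 0.53 to 0.76 with the slow troponins and −0.80 to −0.40 with the fast ones. TPM1 had r of 0.79 to 0.88 with the fast troponins and −0.19 to 0.26 with the slow ones. TPM2, the chain of both fibre types, had r of 0.55 to 0.96 with the fast and 0.22 to 0.54 with the slow troponins. TNNT2 had r of 0.23 to 0.41 with the slow troponins, −0.31 to −0.19 with the fast ones and 0.47 with TPM3. The points are 2 libraries from each of 6 bears and share their scaling, so these values describe the libraries and carry no p. The summer library of bear 1317 was the lowest of its season for TNNC1, TNNC2, TNNI2, TNNT3, TPM1 and TPM2, and without it the fast pairs had r of 0.28 to 0.90, TPM2 with fast 0.17 to 0.91, and the slow pairs 0.84 to 0.92.

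**Figure D4:**
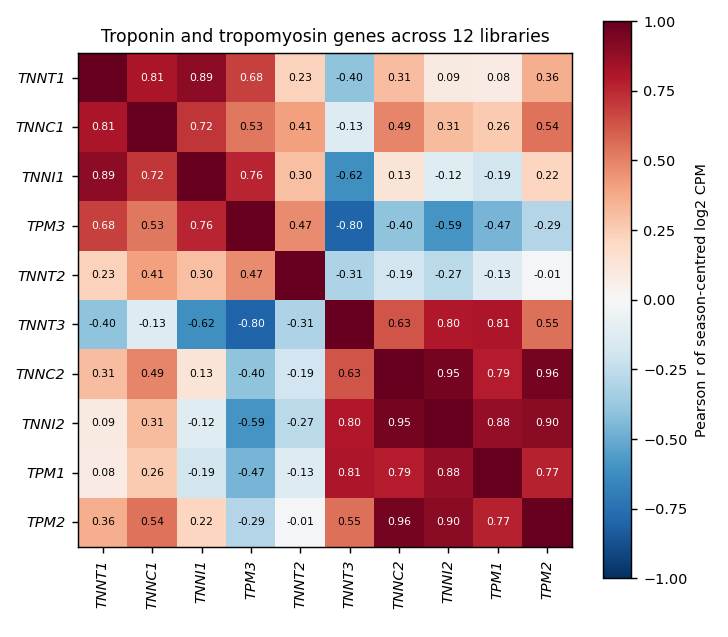
Pearson r between the 10 genes over 12 libraries of 6 bears, computed on log2 CPM with season means removed, with red for positive and blue for negative values. TNNT1, TNNC1, TNNI1 and TPM3 form a group of positive values, and TNNT3, TNNC2, TNNI2, TPM1 and TPM2 form another.

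Among 7542 genes with a symbol and a mean of at least 3 log2 CPM, those most like the mean of the 3 slow troponins were PDLIM1 (r = 0.89), NOC2L (0.86), CSRP1 (0.83), ELN (0.82) and KCTD5 (0.82), over 12 libraries. Those most like the mean of the 3 fast troponins were GAPDH (r = 0.93), RPL27 (0.92), NDUFB9 (0.92), RPL22 (0.91) and PSME1 (0.91). Several of these genes were called between seasons, unlike the troponins. PDLIM1 and ELN fell in winter by 0.63 and 1.54 on the log2 scale (adjusted p = 0.0206 and 0.00110), while RPL27 and RPL22 rose by 0.99 and 0.62 (adjusted p = 9.93e-05 and 0.00262).

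Other slow and fast genes of the contractile apparatus were read from the same fit. Of the 12 slow sarcomere and calcium genes, 4 were called higher, 1 lower and 7 were not called, with a median log2 fold change of 0.16. MYL6B and MYH7B, a slow light chain and a slow myosin heavy chain, rose by 2.64 ± 0.45 and 1.45 ± 0.24 (SE, adjusted p = 0.000537 and 0.000437) with no overlap between seasons. ANKRD2 and CSRP3, known as sensors of mechanical load in the sarcomere, rose by 1.63 ± 0.50 and 1.04 ± 0.33 (adjusted p = 0.0190 and 0.0206). Both calls were lost without bear 1305 (adjusted p = 0.0667 and 0.0607) or bear 1317 (0.0791 and 0.0957). ATP2A2, the slow calcium pump, fell by 0.67 on the log2 scale (SE 0.20, adjusted p = 0.0144), a call lost without the same bears (adjusted p = 0.0575 and 0.0602). MYH7, the main slow myosin, was lower in 6 of 6 bears with a log2 fold change of −0.68 ± 0.26 (adjusted p = 0.0511). With the bear as a block MYH7 passed at −0.66 (adjusted p = 0.0284), MYH6, the alpha cardiac myosin, at −0.79 (adjusted p = 0.0488), and the number of slow genes called lower was 3. The same fit called MYOZ2, a slow Z-disc protein, higher at 0.60 (adjusted p = 0.0270), which brought the slow genes called higher to 5. MYL2 and MYL3, slow light chains, had log2 fold changes of 0.07 and 0.09 in the fit on season alone. Neither held its direction, since without bear 1511 they were −0.07 and −0.23, and MYL3 was 0.68 without bear 1509. The myosin heavy chains MYH7, MYH6, MYH1 and MYH8 were listed under locus numbers and were matched by gene identifier. How reads shared between similar myosin genes were counted is not given in the sources used here.

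None of the fast genes tested was called higher. Of 12 in the list, 9 were tested and 6 were called lower, with a median of −0.48. With the bear as a block 5 were called lower, MYOZ1 no longer passing at −0.42 (adjusted p = 0.0594), and leaving out each bear gave 4 to 6. MYH2, MYH4 and MYL1 were not analysed here. MYBPC2 and MYOZ3, fast fibre proteins of the thick filament and the Z-disc, fell by 1.24 and 1.17 on the log2 scale (adjusted p = 7.18e-05 and 2.59e-05) with no overlap between seasons. ACTN3, the fast alpha-actinin, and ATP2A1, the fast calcium pump, fell by 0.75 and 0.53 (adjusted p = 0.00909 and 0.00474). MYH1, the myosin of fast IIx fibres, and MYLPF, the fast regulatory light chain, had −0.32 and 0.27 (adjusted p = 0.492 and 0.230), and without bear 1316 they were −0.50 and 0.43. Without bear 1317 MYH1 was −0.03. MYH6, MYOZ1 and MYOZ2 are named after their values were seen.

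**Figure D5:**
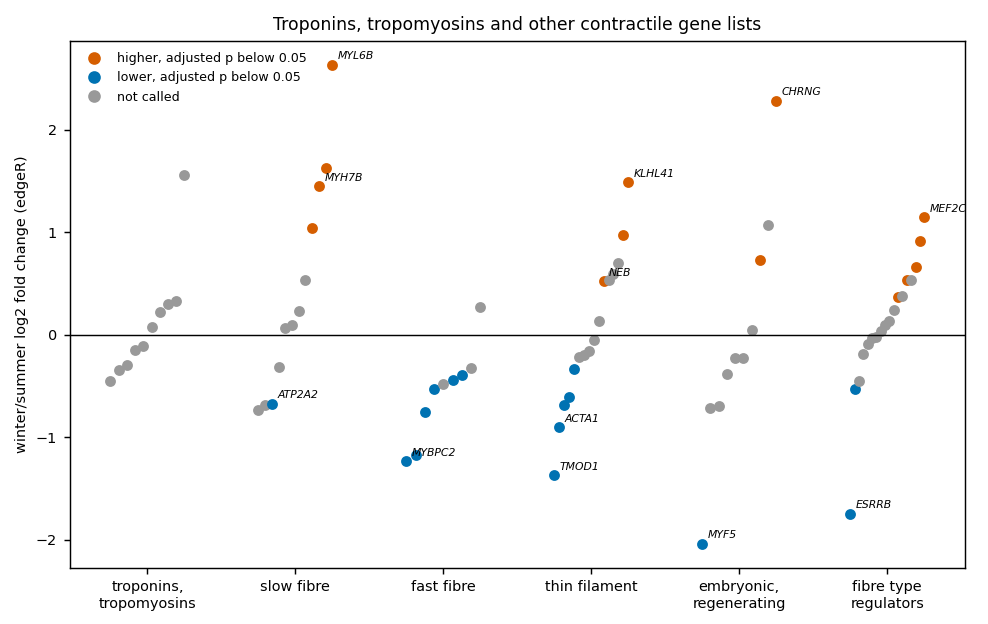
Log2 fold change of winter over summer for each gene, in columns for the 10 troponin and tropomyosin genes and for 5 lists of other contractile and regulatory genes, coloured by the call at an adjusted p below 0.05. All 10 points of the first column are grey (not called), and 6 of the 9 fast genes are blue.

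Other thin filament genes moved in both directions. Of 16 tested, TPM4 included, 3 were called higher and 5 lower, with a median of −0.10. KLHL41, which stabilises nebulin, and LMOD2, which lengthens thin filaments, rose by 1.49 ± 0.18 and 0.97 ± 0.21 (SE, adjusted p = 4.22e-05 and 0.00226). TMOD1, which caps the pointed end of actin, fell by 1.37 on the log2 scale (SE 0.14, adjusted p = 1.32e-05), with no overlap between seasons. ACTA1, skeletal actin, on which the troponin complex lies, fell by 0.90 (SE 0.28, adjusted p = 0.0212), and this call was lost without bear 1305, 1316 or 1509 (adjusted p = 0.0619, 0.0834 and 0.0630).

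Of 18 fibre type regulators, 5 were called higher, 2 lower and 11 were not called. MEF2C and MEF2A, transcription factors of muscle genes, rose by 1.15 and 0.92 (adjusted p = 2.35e-05 and 0.000176), both higher in 6 of 6 bears. PROX1 rose by 0.66 ± 0.24 (adjusted p = 0.0379), and its call was lost without bear 1509, 1511, 1512 or 1317 (adjusted p = 0.0829, 0.0513, 0.113 and 0.0759). TBX15 and TEAD4 were also called higher in the edgeR fit, by 0.54 and 0.37 (adjusted p = 0.0163 and 0.0422). TEAD1 fell by 0.53 in that fit (adjusted p = 0.000655). TBX15 was called in 13 of the 14 alternatives, TEAD4 in 8 and TEAD1 in 14. These 3 genes are named after their values were seen. ESRRB, an orphan nuclear receptor, fell by 1.75 on the log2 scale (adjusted p = 9.73e-05), with no overlap between seasons.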

How the data were processed

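Poly-A RNA of 12 vastus lateralis biopsies was made into stranded libraries. The authors aligned 50-base reads to the ASM358476v1 assembly with TopHat2, discarded alignments with more than 3 mismatches and counted reads per gene by strand with featureCounts 1.6.2. The deposited values are these raw counts, with no normalization. Per the submitters' processing notes TopHat2 was version 2.1.1.

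A minimum of 30 reads summed over all 12 libraries kept 17290 genes. Counts were scaled by TMM and tested with edgeR 4.0.16 (glmQLFit and glmQLFTest, season as the only term, R 4.3.3) with Benjamini-Hochberg adjustment, called at an adjusted p below 0.05. Alternatives were the bear as a replicate block, DESeq2 1.42.0 with and without it, limma 3.58.1 voom, RLE scaling, library totals, no filter, filterByExpr and each bear left out. The scripts were tested on simulated data. Ratios of slow to fast reads were tested within bears by an exact sign-flip permutation test.

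Each bear gave a biopsy in either season by the study's methods, which pairs the libraries, and with season means removed the libraries of 1 bear had r of 0.0903 to 0.344. Among the summer libraries, each winter library was most like that of its own bear, except in bear 1509 (r = 0.0903). The 10 genes and all lists were chosen with earlier results of these data known. Named genes were the 10, up to 4 called genes per list with the largest change, fixed fibre-type genes and the 5 genes most like each troponin group. Sequences and gene coordinates were not used here.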

Additional observations from a re-analysis of the deposited data

Results flagged for a closer look

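The winter library of bear 1509 had 12.22 log2 CPM of TPM2, the beta chain of tropomyosin, and lay apart from the other winter libraries, which ran from 12.74 to 13.02. Its gap to the nearest library was 0.648 of the range of the season, above Dixon's 95% critical value for 6 samples. Among the 28 groups of 6 values examined, 1 was singled out in this way, and chance singles out about 1 in 20 groups.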

How the results depend on the processing

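Among the 10 genes, the call of TNNI2 and that of TNNT2 changed with the processing. TNNI2 passed at −0.44 with DESeq2, −0.41 with DESeq2 and the replicate block and −0.52 with library totals, and TNNT2 at 1.19 with the replicate block. Of the 10 genes, 1 was called lower under each of those 3 settings, and 1 higher under the block. With the replicate block in limma, log2 TNNC1/TNNC2 passed at 0.63. Library totals turned TNNI1 to −0.018. Slow genes called lower were 3 with the block or library totals and 2 with DESeq2, DESeq2 and the block, voom or filterByExpr, embryonic genes called higher were 1 with voom, and regulators called higher were 3 with library totals. Leaving out each bear gave −0.298 to 0.0027 for TNNT1, −0.053 to 0.238 for TNNI1, −0.59 to −0.33 for TNNI2, 0.92 to 2.03 for TNNT2, −0.242 to 0.014 for TPM2, −0.032 to 0.322 for TNNT1/TNNT3 and −0.25 to 0.10 for TPM3/TPM1. It gave 0 to 1 of the 10 genes called higher, 0 to 1 lower, 2 to 4 slow genes higher, 0 to 2 slow genes lower, 1 to 2 embryonic genes higher, 3 to 5 regulators higher and 3 to 5 thin filament genes lower. The causes were not tested. TNNC1, TNNC2, TNNT3, TPM1 and TPM3 kept the direction of the fold change and the side of the threshold in all 14 alternatives. The block changed no call among the 10 other than that of TNNT2. The 9 genes other than TNNT2 had at least 9164 reads in every library.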
